A study of Mus musculus with 8 samples.

Results

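The genes of the proteasome were examined in 8 RNA-seq libraries of mouse acute myeloid leukemia (AML) driven by MLL-AF9, a fusion of the MLL and AF9 genes. Members were chosen by name, as the rows whose symbol is Psm followed by a letter from a to g and a number, which gave 49 of 12823 rows. Among them, the 5 immunoproteasome genes Psmb8, Psmb9, Psmb10, Psme1 and Psme2 were set beside 31 constitutive subunits, which are the subunits of the 20S core and of the 19S cap that most cells use. The further members are the testis-type core subunit Psma8, the activator copy Psme2b, 3 other activators or inhibitors, 7 assembly chaperones, and Psmc3ip, a recombination factor that matched by its name only.

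The leukemia arose from bone marrow progenitors of the mouse that carried the fusion together with GFP from a retrovirus and were placed in sublethally irradiated recipients. The 4 libraries of new AML came from GFP+ cells of the newly generated leukemia. The 4 libraries of aggressive AML came, by the study's account, from cells of that leukemia after 5 serial transplantations. In the study, the recipients of these serial transplantations were not irradiated. The effects of serial transplantation and of recipients without irradiation thus cannot be told apart. Both kinds of cell carried MLL-AF9 and GFP, grew in C57BL/6 mice without drug treatment in the labels, and were sorted from bone marrow as GFP+. The labels call the 4 libraries of a group biological replicates and give no age and no word on whether they stand for separate leukemias, so that the p-values measure the spread between these libraries.

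The proteasome is the protease that degrades proteins tagged with ubiquitin. Its 20S core is a barrel of alpha and beta rings, in which Psmb5, Psmb6 and Psmb7 cut the substrate, and the 19S cap binds, unfolds and feeds in tagged proteins with the help of a ring of ATPases. In cells exposed to interferon and in blood cells in general, Psmb8, Psmb9 and Psmb10 can take the places of Psmb5, Psmb6 and Psmb7, and the PA28 ring made of Psme1 and Psme2 can replace the cap. The resulting immunoproteasome yields peptides that the Tap1 and Tap2 transporter carries to MHC class I molecules.

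Some facts on the libraries bear on what follows. They held 7805544 to 9697777 counts, and 1 count was worth 0.103 to 0.130 CPM (counts scaled by the library total after TMM correction). The 4 Y-linked genes Ddx3y, Eif2s3y, Kdm5d and Uty summed to 2315 to 2574 counts in each new AML library and to 0 in each aggressive AML library, although the labels derive one group from the other. In the study, male mice are given for both groups. The reason for the difference was not tested. It follows group in every library, so a difference in cell origin cannot be told apart from the effects of serial transplantation. Each of the 7 leukemia markers (Ptprc, Itgam, Kit, Mpo, Hoxa9, Meis1 and Cd34) was present, of which Kit (log2 fold change 0.65) and Meis1 (0.45) were called higher and Itgam (-0.61) lower in aggressive AML. Of 6 T cell and 5 NK cell markers, 0 had a row in the table used here, and the B cell marker Cd79b measured 35.1 to 38.9 CPM in new AML and 29.8 to 33.1 CPM in aggressive AML. Neutrophil markers summed to 252.6 to 370.6 CPM in new AML and 126.8 to 177.8 CPM in aggressive AML, with 6 of 7 called lower, and the 3 macrophage and monocyte markers found summed to 341 to 438 CPM and 197 to 261 CPM, with 2 called lower. Of the 3 dendritic cell markers found 2 were called lower (Itgax and Siglech), while Flt3 stood at a log2 fold change of 0.31 and was not called. Of the 5 erythroid markers tested 1 was called lower. These counts are to be read against all tested genes, of which 10.2% were called lower and 8.15% higher. Which cells the marker counts came from was not measured. Fewer cells of a type, less RNA per cell and another state of the leukemia cells cannot be told apart in sorted bulk RNA. The part of such differences in the proteasome results was not tested. Within new AML, replicate 3 had the highest level of 42 of the 49 members and the lowest of 0, so that results that rest on it are given with and without it.

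The promoters of 4 members are shown because they carry, or lack, the interferon letters that the immunoproteasome is known for. Each run covers 250 bases before and 30 bases after the RefSeq start of the gene in the GRCm38.p6 build, written 5′ to 3′ on the strand of the gene. Capitals mark an interferon-stimulated response element (ISRE) core in Psme1 (chr14:55578244-55578523, plus strand), a gamma-activated site (GAS) in Psmb8 (chr17:34197945-34198224, plus strand), a CCAAT box read on the other strand in Psmb9 (chr17:34187301-34187580, minus strand) and an antioxidant response element core in Psmb5 (chr14:54617966-54618245, minus strand).
Psme1: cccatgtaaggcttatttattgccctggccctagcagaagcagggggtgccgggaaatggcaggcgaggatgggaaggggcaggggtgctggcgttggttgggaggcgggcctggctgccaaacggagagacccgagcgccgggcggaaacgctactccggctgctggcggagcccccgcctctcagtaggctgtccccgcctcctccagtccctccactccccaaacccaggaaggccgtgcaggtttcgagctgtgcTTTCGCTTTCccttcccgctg
Psmb8: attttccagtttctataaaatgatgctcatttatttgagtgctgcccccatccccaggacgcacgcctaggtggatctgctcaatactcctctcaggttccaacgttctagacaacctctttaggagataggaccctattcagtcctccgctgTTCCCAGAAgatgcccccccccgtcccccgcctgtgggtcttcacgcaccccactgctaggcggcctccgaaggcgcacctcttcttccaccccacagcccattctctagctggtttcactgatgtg
Psmb9: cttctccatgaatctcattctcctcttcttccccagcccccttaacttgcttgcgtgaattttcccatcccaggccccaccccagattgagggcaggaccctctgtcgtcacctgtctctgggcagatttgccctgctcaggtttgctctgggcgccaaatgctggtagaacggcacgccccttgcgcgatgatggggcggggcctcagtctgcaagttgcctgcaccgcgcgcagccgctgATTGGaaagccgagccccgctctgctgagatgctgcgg
Psmb5: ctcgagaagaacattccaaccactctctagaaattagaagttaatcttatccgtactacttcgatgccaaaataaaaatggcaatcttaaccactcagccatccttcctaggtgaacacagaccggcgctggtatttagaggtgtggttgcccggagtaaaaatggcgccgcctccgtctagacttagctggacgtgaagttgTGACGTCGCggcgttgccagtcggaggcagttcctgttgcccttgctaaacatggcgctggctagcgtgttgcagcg

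Promoters of 41 members were searched on both strands for these 4 motifs over the 250 bases before and 50 bases after the start, beside 32851 mouse promoters of the same length. The ISRE core, written as 2 runs of TTTC with 2 free bases between them, was found in 5 of the 41 (Psmb3, Psmd4, Psmd9, Psme1 and Psmg4) and in 3.44% of all promoters. The GAS letters TTCNNNGAA were found in 3 (Psmb8, Psmd2 and Psmg1), against 8.30% of all. The antioxidant response element core TGACNNNGC, which the stress factors Nfe2l1 and Nfe2l2 are known to bind, was found in 6 (Psmb5, Psmb6, Psmc6, Psmd9, Psmd12 and Psme4), against 12.4% of all, and CCAAT in 14, against 37.4%. A match is a description of the letters and no measure of binding. Psmb8 (34198195 to 34201454) and Psmb9 (34182030 to 34187330) lie within the MHC class II region of chromosome 17 next to the transporter genes, and Psmb10 lies on chromosome 8 (105935728 to 105938392). Psmb5 (chromosome 14, 54614120 to 54617995), Psmb6 (chromosome 11, 70525324 to 70527858) and Psmb7 (chromosome 2, 38588046 to 38643952) lie apart from one another. Their order is Psmb9, Tap1, Psmb8 and Tap2, with 225, 969 and 3024 bases between neighbours, so that Psmb9 and Tap1 share the stretch between them. Psme1 and Psme2 are neighbours on chromosome 14, at a distance of 5912 bases.

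All 49 members passed the filter of at least 1 CPM in at least 4 libraries. Compared with new AML, 7 members rose in aggressive AML and 0 fell, as judged by edgeR with adjusted p-values under 0.05. Over all 12494 tested genes, 8.15% were called higher and 10.2% lower, so that the 7 of 49 are to be read against 8.15%. At an unadjusted p under 0.05, 11 members were higher and 0 lower. DESeq2 called 7 higher, limma on log2(CPM + 1) 6 and limma-voom 6, and each of the 3 called 0 lower. A fold change above 0 was found for 37 members (75.5%), and for 50.1% of all tested genes. The median log2 fold change, aggressive AML over new AML, was 0.08 for the members and 0.000444 for all tested genes. Without new AML replicate 3, 42 members lay above 0 and their median was 0.14. All 4 aggressive AML libraries lay above all 4 new AML libraries in 5 members (Psma8, Psmb5, Psmd9, Psmd14 and Psmg1), where 9.76% of all genes did so. In 0 members did they all lie below, where 12.0% of all genes did. The number of higher calls rested on single libraries. It was 13 without new AML replicate 3, 6 without replicate 3 or without replicate 4 of aggressive AML, 4 without aggressive AML replicate 2, 3 without new AML replicate 1, and 2 (Psma8 and Psmb5) without replicate 2 or replicate 4 of new AML or without replicate 1 of aggressive AML.

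**Figure D1:**
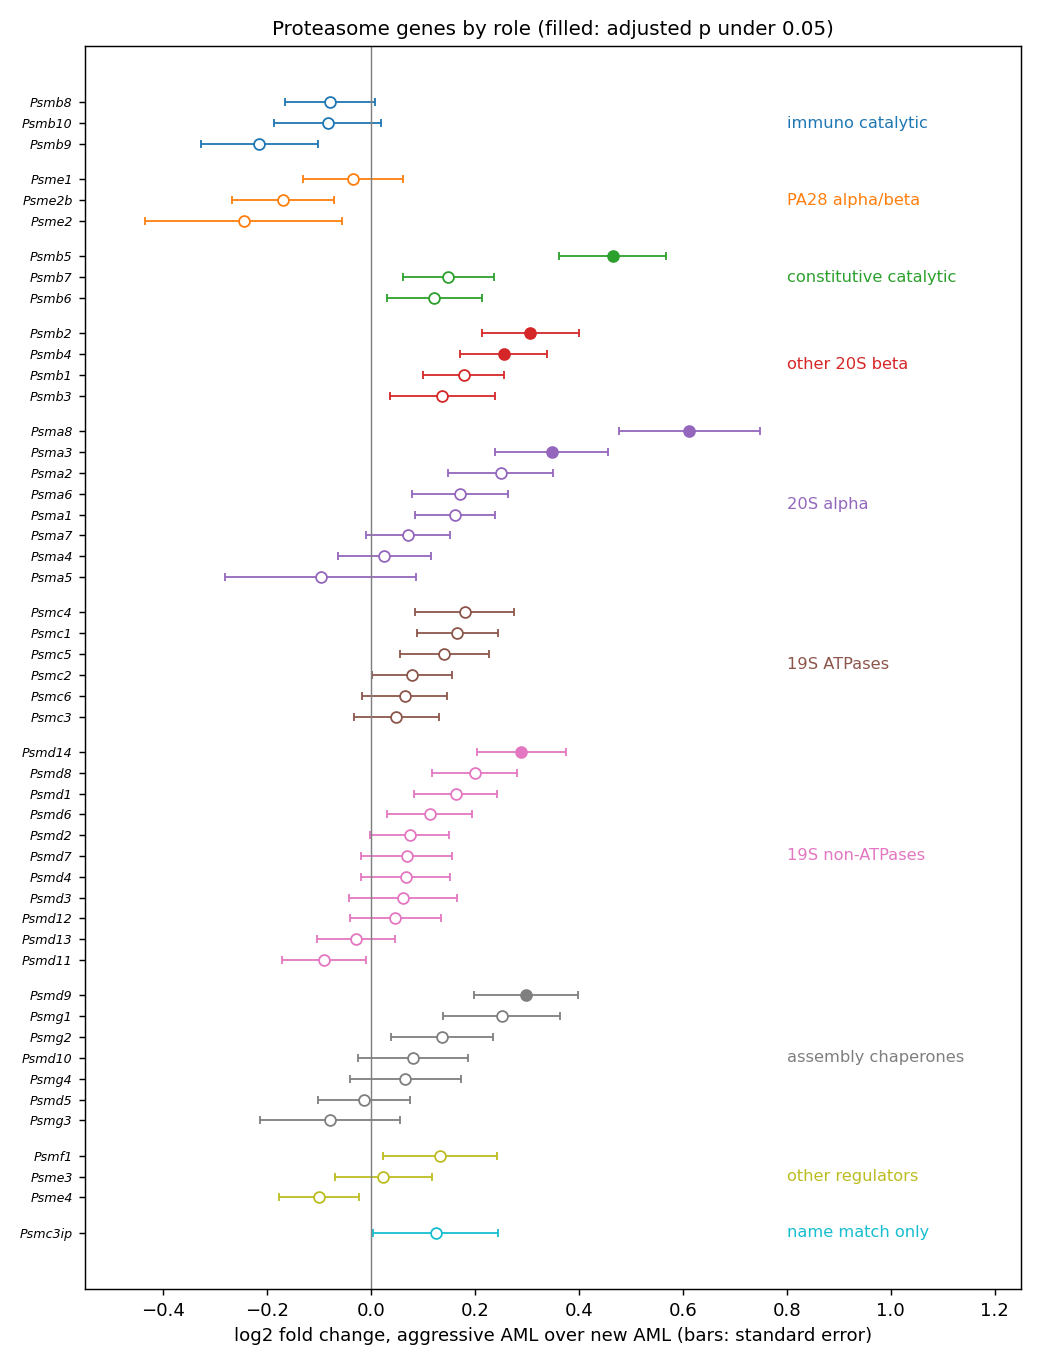
Log2 fold change of each of the 49 members (horizontal axis, aggressive AML over new AML, bars are standard errors of the edgeR fit, 4 libraries a group), grouped by role. Filled points mark the 7 genes with an adjusted p under 0.05, which all lie right of 0, while the 3 immunoproteasome catalytic genes and the 3 PA28 genes lie left of 0 with open points.

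Of the immunoproteasome genes, 0 of 5 were called in either direction in edgeR, and Psmb8, Psmb9, Psmb10 and Psme1 measured at least 125.4 CPM in every library. Psmb8, which cuts after hydrophobic residues in the place of Psmb5, measured 439.6, 389.3, 485.5 and 374.9 CPM in new AML replicates 1 to 4 and 431.0, 397.3, 406.2 and 365.5 CPM in aggressive AML replicates 1 to 4. The groups overlapped, and the highest value was that of new AML replicate 3. On the log2 scale the fold change came to -0.08 (SE 0.09, adjusted p = 0.569 in edgeR), from 422.3 ± 50.4 to 400.0 ± 27.1 CPM (SD, n = 4), and without new AML replicate 3 to -0.0048. Psmb9, the partner of Psmb6, measured 191.9, 180.1, 255.8 and 181.4 CPM in new AML and 194.1, 155.0, 187.1 and 161.2 CPM in aggressive AML. New AML replicate 3 again stood above the others, and 2 of the aggressive AML libraries lay below every new AML library. Its log2 fold change of -0.22 (SE 0.11) had an unadjusted edgeR p of 0.0744 and an adjusted p of 0.200, and was -0.08 without new AML replicate 3. Psmb10, which replaces Psmb7, measured 136.0, 131.0, 178.4 and 127.3 CPM in new AML and 144.4, 140.6, 125.4 and 129.9 CPM in aggressive AML. Here the groups overlapped throughout, with a log2 fold change at -0.08 (SE 0.10, adjusted p = 0.611 in edgeR) that turned to 0.04 without new AML replicate 3.

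The PA28 activator was likewise not called. Psme1, its alpha subunit, measured 254.4, 230.4, 299.9 and 224.6 CPM in new AML and 264.7, 235.1, 265.0 and 220.9 CPM in aggressive AML. Apart from new AML replicate 3 the ranges were close, and its log2 fold change was -0.03 (SE 0.10, adjusted p = 0.834 in edgeR), or 0.06 without that library. The Psme1 span overlaps Emc9, and 14.1% of the 50-base words of its transcript occur in transcripts of other genes. Psme2, the beta subunit, had 58 to 78 counts in new AML and 40 to 64 in aggressive AML, or 7.84 ± 0.951 and 6.60 ± 1.00 CPM (log2 fold change -0.25, SE 0.19, adjusted p = 0.397 in edgeR, and -0.15 without aggressive AML replicate 3). Psme2 has a close copy, and whether the copy bears on this low level was not tested. Psme2b on chromosome 11, a retrocopy, measured 182.9, 162.5, 228.0 and 162.5 CPM in new AML and 165.5, 160.3, 164.2 and 164.3 CPM in aggressive AML. As many as 59.3% of the 50-base words of Psme2 occur in Psme2b, and how the counting treated reads that match several places is not given in the sources used here. Reads from the shared stretches thus cannot be assigned to either gene with certainty, and the separate levels of the 2 genes are uncertain. Together they held 191.8 ± 31.4 CPM in new AML and 170.2 ± 1.97 CPM in aggressive AML, and 176.9 CPM in new AML without replicate 3. On the log2 scale Psme2b stood at -0.17 (SE 0.10, adjusted p = 0.251 in edgeR).

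Of the immunoproteasome genes, 0 of 5 were called lower, where 10.2% of all genes were, and at an unadjusted p under 0.05 the count was 0 as well, as was the count of adjusted calls by DESeq2, limma and limma-voom. Their 5 fold changes were all below 0, with a median of -0.08. Without new AML replicate 3, 2 of the 5 (Psmb10 and Psme1) lay above 0 and the median was -0.0048.

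The constitutive catalytic genes lay above 0, and 1 of the 3 rose, where 8.15% of all genes were called higher. Psmb5, the chymotrypsin-like subunit, measured 77.9, 76.4, 99.5 and 71.7 CPM in new AML and 114.6, 110.7, 123.2 and 100.9 CPM in aggressive AML. The groups did not overlap, although aggressive AML replicate 4 lay only just above new AML replicate 3. Psmb5 rose from 81.4 ± 12.4 to 112.4 ± 9.24 CPM (SD, n = 4), which is 0.46 on the log2 scale (SE 0.10, adjusted p = 0.00571 in edgeR), and the call held in all 8 fits that each left out 1 library (0.41 to 0.58). Of the 50-base words of its transcript, 57.1% occur in transcripts of other genes, most of them in the copy Gm3375, and its span holds Mir686. Psmb6, the caspase-like subunit, measured 120.9, 111.3, 137.0 and 114.9 CPM in new AML and 148.4, 125.3, 135.7 and 117.4 CPM in aggressive AML, with overlap and a log2 fold change at 0.12 (SE 0.09, adjusted p = 0.381 in edgeR), or 0.06 without aggressive AML replicate 1. Psmb7, the trypsin-like subunit, measured 166.3, 163.1, 207.1 and 164.3 CPM in new AML and 190.5, 195.3, 209.8 and 181.5 CPM in aggressive AML. All aggressive AML libraries lay above the new AML libraries other than replicate 3, which lay above 3 of them. The log2 fold change of Psmb7 stood at 0.15 (SE 0.09, adjusted p = 0.260 in edgeR), and at 0.24 with a call (adjusted p = 0.0415) without new AML replicate 3. Its span overlaps Gm13586.

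**Figure D2:**
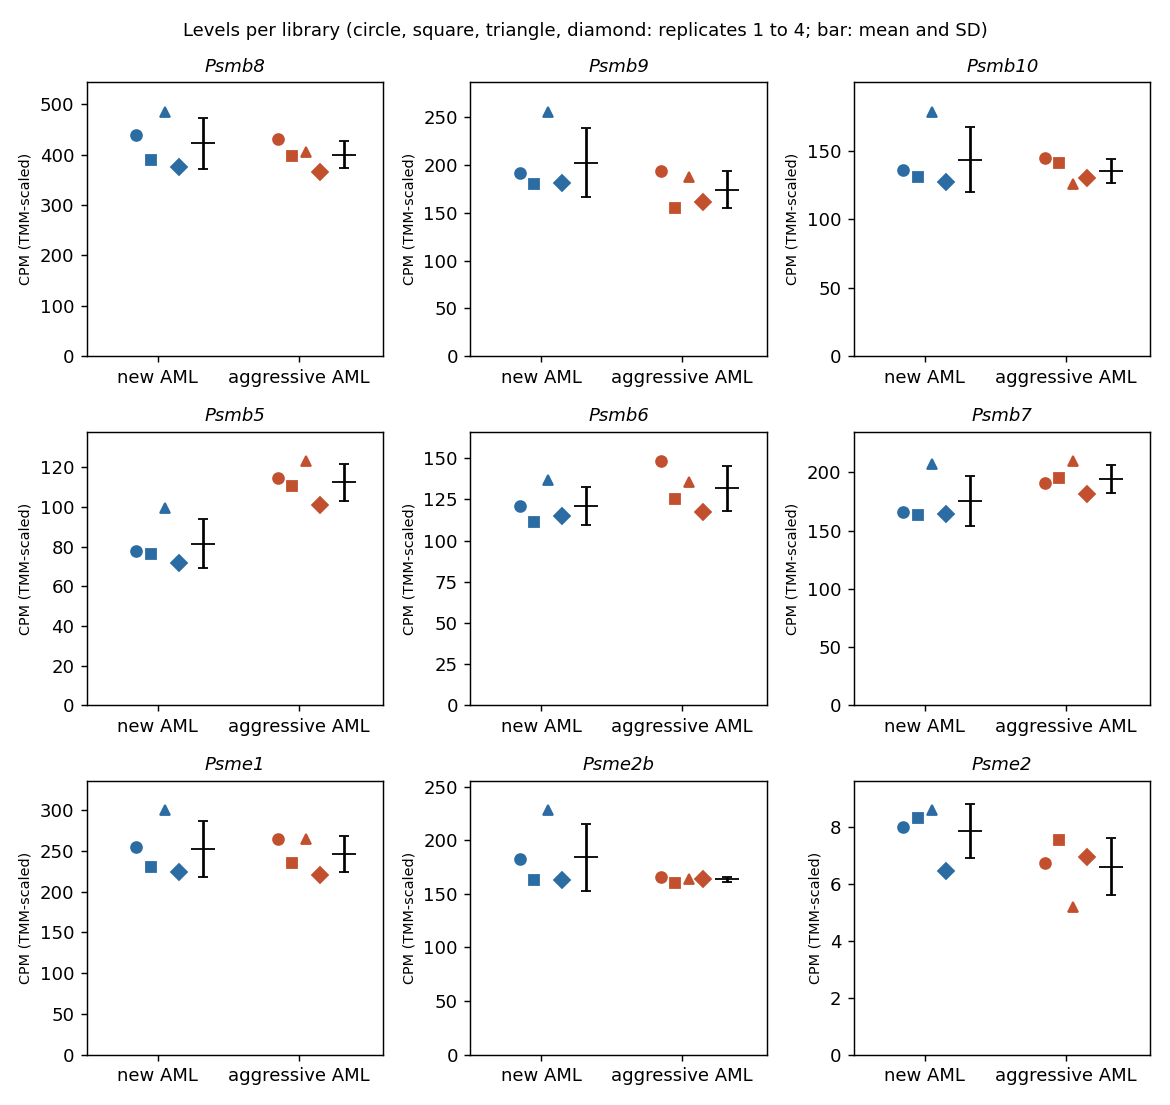
CPM TMM scaling (vertical axes from 0) in each of the 4 new AML and 4 aggressive AML libraries for the immunoproteasome catalytic genes (top), their constitutive counterparts (middle) and the PA28 genes with Psme2b (bottom). Markers stand for replicates 1 to 4 and the bar for the mean and SD. New AML replicate 3, the triangle, is the highest new AML library in each panel, and Psmb5 is the panel whose groups do not overlap.

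The question of whether the make-up of the catalytic transcripts differed was put to ratios within a library, which do not depend on library scaling. The subunits of assembled proteasomes were not measured. For Psmb8 to Psmb5 counts the ratio was 5.64, 5.09, 4.88 and 5.23 in new AML and 3.76, 3.59, 3.30 and 3.62 in aggressive AML. Every aggressive AML library lay below every new AML library. The mean fell from 5.21 ± 0.322 to 3.57 ± 0.196 (SD, n = 4), a log2 difference of -0.55 (SE 0.06, two-sided exact permutation p = 0.0286). The ratio of Psmb9 to Psmb6 was 1.59, 1.62, 1.87 and 1.58 in new AML and 1.31, 1.24, 1.38 and 1.37 in aggressive AML, a log2 difference of -0.33 (SE 0.07, exact permutation p = 0.0286). The ratio of Psmb10 to Psmb7 was 0.818, 0.803, 0.862 and 0.775 in new AML and 0.758, 0.720, 0.598 and 0.716 in aggressive AML, a log2 difference of -0.23 (SE 0.08, exact permutation p = 0.0286). Neither of these ratios overlapped between groups, but for Psmb10 to Psmb7 the nearest libraries were 0.775 and 0.758. The permutation p of 0.0286 is the smallest that the 70 choices of 4 of 8 libraries allow, and any ratio without overlap reaches it. It stayed at that value after adjustment over the 3 ratios. Of all tested genes, 9.76% had every aggressive AML library above every new AML library, and 12.0% had every one below. How often ratios of other gene pairs part the groups was not examined. The log2 differences of the 3 ratios without new AML replicate 3 were -0.58, -0.27 and -0.20. The smallest permutation p that such a comparison of 3 with 4 libraries allows is 0.0571.

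The 3 ratios fell for different parts of the pair. For Psmb8 to Psmb5 the denominator rose while Psmb8 was not called, and for the other 2 ratios neither gene was called alone. Because Psmb5 shares sequence with copies, the 3 immunoproteasome genes were also set against the summed counts of the 18 constitutive subunits with under 1% of shared 50-base words, a choice made after the sharing was seen. Per 100 such counts, Psmb8 had 14.1 to 15.4 in new AML and 12.3 to 13.2 in aggressive AML, Psmb9 6.58 to 7.85 and 4.98 to 5.94, and Psmb10 4.77 to 5.48 and 3.97 to 4.52. The log2 differences were -0.20, -0.33 and -0.20, with no overlap between groups, so that the difference for Psmb8 was smaller against this sum than against Psmb5. Psmb5 itself had 2.70 to 3.05 per 100 such counts in new AML and 3.401 to 3.895 in aggressive AML.

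**Figure D3:**
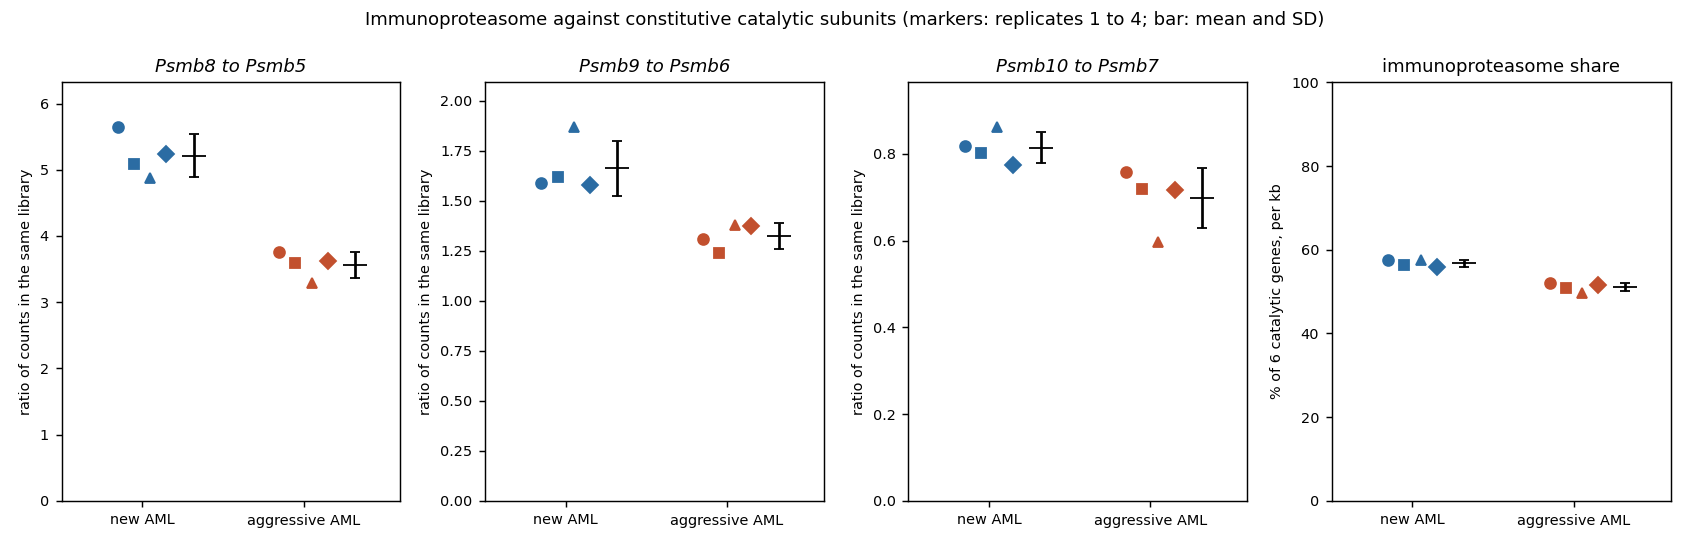
Ratio of counts in the same library for Psmb8 to Psmb5, Psmb9 to Psmb6 and Psmb10 to Psmb7, and at the right the share of the immunoproteasome genes among the 6 catalytic genes per kb of transcript in percent (axes from 0, markers are replicates 1 to 4, bars are mean and SD). In all 4 panels the 4 aggressive AML libraries lie below the 4 new AML libraries.

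On a scale per kb of transcript, which allows levels to be compared between genes, the 3 immunoproteasome catalytic genes summed to 518.3 ± 74.0 CPM per kb in new AML and 477.7 ± 31.9 in aggressive AML, and the 3 constitutive ones to 393.2 ± 45.7 and 457.5 ± 32.3. The immunoproteasome share of these transcripts was 57.5%, 56.4%, 57.5% and 55.8% in new AML and 52.0%, 50.9%, 49.8% and 51.6% in aggressive AML. It thus moved from 56.8% ± 0.832 to 51.1% ± 0.983 (SD, n = 4) without overlap. Psmb8 was among the most abundant members, at 259 CPM per kb in new AML and 246 in aggressive AML, beside the core subunit Psma7 at 251 and 264. Psme1 stood at 227 and 222, Psmb9 at 150 and 129, Psmb7 at 151 and 167, Psmb6 at 152 and 165, Psmb10 at 109 and 103, and Psmb5 at 90.5 and 125. With the SD of the libraries, which was 31.0 for Psmb8 in new AML, the order of Psmb8, Psma7 and Psme1 is not resolved, nor is that of Psmb6, Psmb7 and Psmb9 in new AML. Psmb5 was the lowest of the 6 catalytic genes in new AML, and Psmb10 was the lowest in aggressive AML. The lengths are those of the longest protein-coding transcript in GENCODE. Which transcripts the cells used was not measured, so that the order of the genes and the level of the share depend on this choice. Sharing of reads with copies lowers or raises a level in a way that was not measured. The per kb levels of Psma5 (9.45 in new AML, 54.5% of words shared) and Psmb5 (57.1% shared) are therefore uncertain. With the latter, so are the place of Psmb5 in this order and the share of the immunoproteasome genes.

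**Figure D4:**
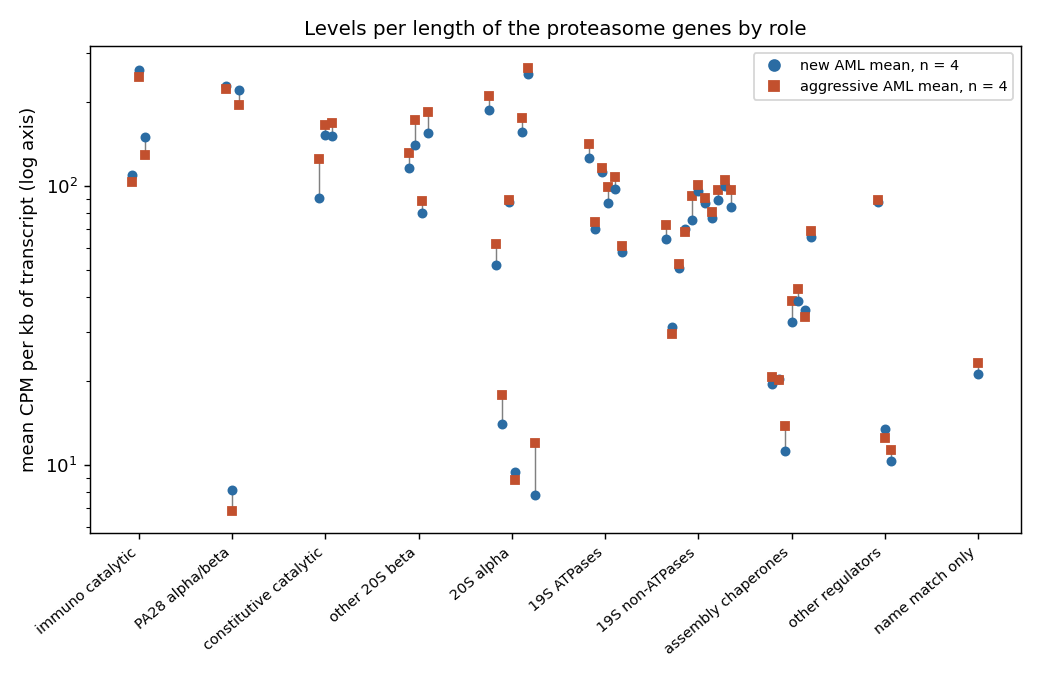
Mean level per kb of transcript (vertical log axis, CPM per kb) of the 49 members by role, with circles for new AML and squares for aggressive AML (4 libraries each). Psmb8 and Psma7 lie at the top in both groups, and Psma8, Psme2 and Psma5 are the lowest in new AML.

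Of the 31 constitutive subunits, 5 were called higher (Psma3, Psmb2, Psmb4, Psmb5 and Psmd14) and 0 lower in edgeR, with 8 higher and 0 lower at an unadjusted p under 0.05, beside 8.15% of all genes called higher and 10.2% lower. The fold change was above 0 in 28 of them, and the median was 0.14. Their summed level was 4502, 4359, 5164 and 4223 CPM in new AML and 5199, 5013, 5103 and 4749 CPM in aggressive AML. New AML replicate 3 thus lay within the range of aggressive AML, and the other new AML libraries lay below it. Without that library 12 of the 31 were called higher, 0 lower, and the median was 0.19.

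Among the alpha subunits, which form the outer rings and gate of the core, 2 of 8 rose, beside 8.15% of all genes. Psma8, an alpha subunit known from the germ cells of the testis, where it takes the place of Psma7, measured 10.8, 15.3, 13.6 and 13.3 CPM in new AML and 19.8, 21.6, 20.3 and 19.2 CPM in aggressive AML. The groups were apart, and these levels rest on 105 to 129 counts and 157 to 183 counts per library. Psma8 rose by 0.61 on the log2 scale (SE 0.14, adjusted p = 0.00569 in edgeR), the largest change of the 49 members, and was called in all 8 fits without 1 library. It shared 0 of its 50-base words with transcripts of other genes. Its level in CPM per kb stood at 7.83 in new AML and at 11.9 in aggressive AML, against 251 and 264 for Psma7. Psma3 measured 36.9, 35.7, 48.0 and 39.1 CPM in new AML and 55.5, 47.5, 49.8 and 50.5 CPM in aggressive AML, where new AML replicate 3 lay inside the range of the other group. Its log2 fold change was 0.35 (SE 0.11, adjusted p = 0.0366 in edgeR), 22.0% of its words are shared and its span overlaps 3110056K07Rik. The call was lost when any of new AML replicates 1, 2 and 4 or aggressive AML replicates 1 and 4 was left out (adjusted p of up to 0.123). Psma5 had the lowest value of the group, -0.10 (SE 0.18, adjusted p = 0.753 in edgeR), and the group median was 0.17.

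Of the 4 structural beta subunits, 2 rose, beside 8.15% of all genes. Psmb2 measured 115.7, 116.4, 140.5 and 107.2 CPM in new AML and 166.0, 138.1, 146.9 and 142.5 CPM in aggressive AML, with new AML replicate 3 above 1 aggressive AML library (log2 fold change 0.31, SE 0.09, adjusted p = 0.0315 in edgeR). Psmb4 measured 190.3, 173.7, 203.6 and 161.3 CPM in new AML and 229.2, 222.5, 220.0 and 198.2 CPM in aggressive AML, and again new AML replicate 3 alone reached into the other group (0.26, SE 0.08, adjusted p = 0.0460). Psmb2 was called in 4 and Psmb4 in 2 of the 8 fits without 1 library, with adjusted p-values of up to 0.102 and 0.136. Psmb2 lost its call without new AML replicates 1, 2 or 4 or aggressive AML replicate 1, and Psmb4 without the same libraries or aggressive AML replicates 2 or 3. Psmb3 had the lowest fold change of the 4 (0.14, SE 0.10, adjusted p = 0.369), with 55.8% of its words shared.

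In the 19S cap, 1 of 17 subunits rose, a share under the 8.15% of all genes called higher. Psmd14, the deubiquitinase that removes the ubiquitin chain before a substrate enters the core, measured 124.6, 109.1, 128.9 and 102.0 CPM in new AML and 146.7, 148.4, 136.3 and 136.5 CPM in aggressive AML. The groups did not overlap. It rose by 0.29 on the log2 scale (SE 0.09, adjusted p = 0.0290 in edgeR), but the call was lost without new AML replicates 2 or 4 or aggressive AML replicates 1 or 2 (adjusted p of up to 0.101). The other 10 non-ATPase subunits had fold changes from -0.09 (Psmd11, SE 0.08, adjusted p = 0.466) upward, and the median of the 11 was 0.07. Of the 6 ATPases, which unfold the substrate, 0 were called, and 0 had an unadjusted p under 0.05 in edgeR. Their fold changes ran from 0.05 in Psmc3 (SE 0.08, adjusted p = 0.722) to 0.18 in Psmc4 (SE 0.09, adjusted p = 0.202), all above 0.

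Of the assembly chaperones, 1 of 7 rose, a single gene to be read against the 8.15% of all genes called higher. Psmd9, which helps to build the base of the cap, measured 28.9, 29.6, 30.6 and 27.9 CPM in new AML and 38.3, 37.8, 34.98 and 32.8 CPM in aggressive AML, without overlap. Its log2 fold change was 0.30 (SE 0.10), and the adjusted p of 0.0493 in edgeR lay just under the threshold. It was 0.0545 in limma on log2(CPM + 1), 0.0519 in limma-voom and up to 0.122 in the fits without 1 library, where 2 of 8 kept the call (those that left out replicate 3 or replicate 4 of aggressive AML). Psmg3, an assembly factor of the core, had the lowest value of the group (-0.08, SE 0.13, adjusted p = 0.723). The other regulators were not called, with -0.10 in the activator Psme4 (SE 0.08, adjusted p = 0.388), 0.02 in the nuclear activator Psme3 and 0.13 in the inhibitor Psmf1 (SE 0.11, adjusted p = 0.427). Psmc3ip stood at 0.12 (SE 0.12, adjusted p = 0.506). The thymus subunit Psmb11 had no row in the table used here.

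Genes of the same pathway outside the name pattern were counted in 3 lists. Of 26 tested proteasome partners, which include cap subunits, ubiquitin genes, shuttle factors and the transcription factors Nfe2l1 and Nfe2l2, 1 was called higher and 2 lower in edgeR, shares under the 8.15% and 10.2% of all genes. The one that rose was Shfm1, listed today as Sem1, a small subunit of the cap lid, from 194.0 ± 22.1 to 250.6 ± 16.3 CPM (log2 fold change 0.37, SE 0.09, adjusted p = 0.00774). The ubiquitin receptor Ubqln2 fell from 52.3 ± 8.36 to 40.9 ± 2.75 CPM (-0.36, SE 0.11, adjusted p = 0.0410), and the ubiquitin-activating enzyme Uba6 from 36.8 ± 4.49 to 27.8 ± 4.94 CPM (-0.40, SE 0.13, adjusted p = 0.0495). The call of Uba6 was lost without new AML replicate 3. Nfe2l1, which induces proteasome genes when the proteasome is blocked, stood at 0.02 (SE 0.07, adjusted p = 0.844), and Pomp, the assembly factor of the core, at 0.03 (SE 0.09, adjusted p = 0.836).

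The interferon factors that are known to act on immunoproteasome genes were mostly lower in aggressive AML. Of 12 reported here, 8 were called lower (Stat2, Irf1, Irf8, Irf9, Ifngr2, Ifnar1, Ifnar2 and Jak2) and 1 higher (Ifngr1), where 10.2% of all genes were lower and 8.15% higher. Irf1, a transcription factor that interferon induces and that binds ISRE sites, measured 68.9, 71.5, 114.2 and 77.6 CPM in new AML and 65.3, 56.8, 45.5 and 61.9 CPM in aggressive AML. The groups did not overlap, and new AML replicate 3, the highest library in Psmb8, Psmb9, Psmb10 and Psme1, was also the highest in Irf1. That library was the highest of new AML in 42 of the 49 members, so that its high level is not particular to the immunoproteasome genes. Irf1 fell by 0.53 on the log2 scale (SE 0.15, adjusted p = 0.0229 in edgeR). Without that library it was at -0.34 and lost its call (adjusted p = 0.0564), and 7 of the 12 were then lower. Irf9, which binds ISRE sites as well, stood at -1.04 on the log2 scale (SE 0.10, adjusted p = 4.53e-06). The transcription factors Stat2 and Irf8 had log2 fold changes of -0.52 and -0.54, the receptor chains Ifngr2, Ifnar1 and Ifnar2 of -0.65, -0.38 and -0.43, and the kinase Jak2 of -0.43. Ifngr1, the other chain of the interferon gamma receptor, rose by 0.38 (SE 0.10, adjusted p = 0.0204 in edgeR). Psmb8, Psmb9 and Psmb10 were not called beside these changes, and whether their fold changes differ from those of the interferon factors was not tested.

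Among the 7 genes of peptide transport, trimming and class I, Tap1, Tapbp, B2m and H2-D1 were called lower and 0 higher in edgeR, beside 10.2% and 8.15% of all genes, with 5 lower and 0 higher at an unadjusted p under 0.05. Tap1, which shares its upstream stretch with Psmb9, measured 297.2, 286.2, 375.8 and 288.8 CPM in new AML and 238.3, 216.3, 279.9 and 212.4 CPM in aggressive AML. Its log2 fold change was -0.40 (SE 0.10, adjusted p = 0.0149 in edgeR) beside -0.22 (SE 0.11) for Psmb9, and without new AML replicate 3 the values were -0.30 and -0.08. Tap2, the partner of Tap1 on the other side of Psmb8, stood at -0.05 (SE 0.07, adjusted p = 0.680). Tapbp, B2m and H2-D1 had log2 fold changes of -0.53, -0.43 and -0.45, and without new AML replicate 3 the same 4 genes of the list were called.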

How the data were processed

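RNA of sorted GFP+ MLL-AF9 cells was sequenced in 4 new AML and 4 aggressive AML libraries, grouped by their labels. The authors purified poly(A) RNA, aligned paired-end reads to mm10 with HISAT2, counted reads per gene with Rsubread and removed genes under 1 CPM. The annotation, the strand setting and the treatment of reads with several matches are not given in the sources used here, so that overlapping genes are uncertain. The deposited values are named for CPM but are whole numbers, and they were used as raw read counts per gene. A gene was tested if 4 or more libraries reached 1 CPM (12494 were, and 329 were left out). The test was edgeR's quasi-likelihood F test (edgeR 4.0.16 in R 4.3.3), TMM scaling and group as the sole term, two-sided, with Benjamini-Hochberg adjustment over all tested genes and a threshold of 0.05. The study used limma on log2 CPM, which is an alternative here (limma 3.58.1), as is DESeq2 (1.42.0). Ratios of 2 genes were taken on log2(count + 0.5) and tested by exact two-sided permutation of the 8 libraries. Shared sequence is the percent of 50-base words found in GENCODE transcripts of other genes. Positions and promoters are RefSeq, GRCm38.p6, the build of mm10, and 49 members matched. Genes named with values are the immunoproteasome and constitutive catalytic genes, every called member, the highest and lowest member of each role, and the called genes of the pathway lists. Psme2b, Psma7, Nfe2l1, Pomp, Tap2 and Psme3 were named after their values were seen. The members and lists were chosen with earlier results of these data known. Some genes of the pathway and marker lists are not reported here. The fits were tested on simulated data. Alternatives were another scaling, other tests and filters, a replicate block and leaving out each library.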

Additional observations from a re-analysis of the deposited data

Results flagged for a closer look

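Of 104 groups of 4 values examined, 10 held a library far from the others by Dixon's criterion and chance alone flags about 1 in 20 groups. In new AML replicate 3, Psmb3 was high at 71.8 CPM (the other libraries 57.1 to 59.1), as were Psmb7 at 207.1 CPM (163.1 to 166.3), Psmb9 at 255.8 CPM (180.1 to 191.9) and Psmb10 at 178.4 CPM (127.3 to 136.0), and the log2 ratio of Psmb9 to Psmb6 was high at 0.90 (0.66 to 0.69). In aggressive AML, Psmd11 was high in replicate 2 at 88.5 CPM (81.8 to 82.8), and so was Psmd12 in that library at 113.8 CPM (97.9 to 100.4). Psmd6 was high in aggressive AML replicate 1 at 142.6 CPM (130.6 to 131.5). Psmd5 was low in aggressive AML replicate 3 at 73.7 CPM (91.8 to 94.6), and Psma5 was low in aggressive AML replicate 4 at 9.22 CPM (11.4 to 11.7).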

How the results depend on the processing

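The count of members called lower, and of immunoproteasome genes called lower, was 0 in all 15 alternatives. The count of members called higher was 7 with DESeq2 size factors, the DESeq2 test, no filter, a mean of at least 10 CPM and the replicate block, and 6 in limma and limma-voom. It ranged from 2 to 13 when 1 library was left out. Psma8 and Psmb5 were called in all 15. Without new AML replicate 3, the log2 fold changes of Psma5 (0.0015), Psmb10 (0.040), Psme1 (0.059) and Psmg3 (0.0028) turned above 0, and that of Psme1 also without aggressive AML replicate 4 (0.020). Their lowest values, without new AML replicate 4, were -0.24, -0.14, -0.087 and -0.18. None of these was called. Psme2 fell out at a mean of at least 10 CPM.

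For the ratios, leaving out 1 library gave log2 differences of -0.58 to -0.51 (Psmb8 to Psmb5), -0.35 to -0.27 (Psmb9 to Psmb6) and -0.27 to -0.15 (Psmb10 to Psmb7), with exact permutation p = 0.0571 in each, the smallest that 4 against 3 allows. Against the unshared constitutive subunits, the difference for Psmb8 was -0.20 in place of -0.55, an alternative added after the data were seen. With the replicate block (sign flips within numbers), the differences were -0.55, -0.33 and -0.23 with exact p = 0.125, the smallest possible. The replicate numbers did not pair the libraries. Deviations of same-numbered libraries correlated over genes at 0.10, -0.04, -0.07 and 0.20, and 3 of 8 libraries correlated best with their own number. Under the block, Psma2 gained a call and Psmd9 lost it (adjusted p = 0.0680 in edgeR). Depth limits Psme2, with 40 to 78 counts per library.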
